A study of Homo sapiens with 2 samples.

Results

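The mitosis and G2/M genes examined here were 58 genes chosen by name for their known roles in mitosis, among them mitotic kinases, kinesins, and kinetochore, checkpoint and condensin genes. They were 58 of the 19938 protein-coding genes, and of the 41582 gene symbols of any kind, that the deposited transcript table could be summed to, and all 58 were found. The cells were U87, an established human glioblastoma cell line labelled as wild type (WT), grown in RPMI medium with FBS. They received CCA-1.1, a curcumin analog, or its vehicle DMSO, and RNA was sequenced after 72 h. There was 1 library per condition, so the differences described here rest on no replicates and carry no p-values. The dose of CCA-1.1 used for sequencing is not given in the sources used here, and both libraries come from a single cell line.

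A dividing cell enters mitosis when cyclin B switches on the kinase CDK1, which the CDC25 phosphatases release from inhibition. Spindle motors and kinetochore proteins then attach the chromosomes to microtubules, and a checkpoint holds back the anaphase-promoting complex (APC/C) until every chromosome is attached. APC/C activity destroys securin and cyclin B, the sister chromatids part and the cell cleaves. Many of these genes are transcribed mainly in G2 and mitosis, through the MuvB complex with B-MYB and FOXM1, and promoters of this class often carry a cell cycle homology region (CHR) and CCAAT boxes, the latter bound by NF-Y. In a bulk library, fewer cells in mitosis and less RNA per cell cannot be told apart.

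The values are TPM, in which reads are divided by transcript length and library total, which allows levels to be compared between genes but hides the read depth. Transcript TPM were summed per gene, and a gene is called expressed here when its mean over both libraries was 1 TPM or more. Differences are log2(TPM + 1) of the CCA-1.1 library minus that of the DMSO library, a scale that understates the difference of low genes. VIM, an intermediate filament gene high in glioblastoma lines, was at 3217 TPM with DMSO and 3106 TPM with CCA-1.1. The neural precursor genes NES (7.53 and 7.62 TPM) and SOX2 (1.87 and 1.45 TPM) were low, and the astrocyte genes GFAP (0.41 and 0.57 TPM), AQP4 (0 and 0.02 TPM) and S100B (listed at 0 in both) were at or near 0. Among the markers of other cell types, the immune genes PTPRC (0.09 and 0.07 TPM) and AIF1 (listed at 0 in both) were near 0, whereas COL1A2 (564 and 443 TPM) and CD68 (494 and 397 TPM) were high. Summed TPM of the immune markers was 495.53 and 398.78, that of the fibroblast markers 622.19 and 499.99, and that of the neuronal markers 287.16 and 256.11. CD68 made up nearly all of the immune sum and COL1A2 most of the fibroblast sum, whereas CSF1R (1.23 and 1.62 TPM) and COL1A1 (15.86 and 19.79 TPM) were higher with CCA-1.1. Of the glial list, CD44 was at 607 and 473 TPM and OLIG2 at 5.64 and 7.03 TPM. Of all 16 expressed cell type markers, 11 (68.8%) were lower in the CCA-1.1 library, where 46.0% of all expressed protein-coding genes were. The part of these lower values in the differences below was not tested.

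Promoter sequences of 6 members are shown because they carry the motifs by which this gene class is usually recognised, and because they run from TOP2A, with the largest difference of any member, to CKS2, with a small one and the highest level. The 6 were picked by name. All of them were lower in the CCA-1.1 library, as were 47 of all 58 members. Members with both motifs that were higher, such as KIF23 (0.14) and CDCA8 (0.08), are not shown. Each is the 250 bases before an annotated RefSeq start on GRCh38.p14, 5′ to 3′ on the strand of the gene. For CDK1 it is the second of its annotated windows, whose start lies within the annotated gene. Capitals mark CHR letters (TTTGAA or TTCGAA, read on either strand, so that TTTGAA on the opposite strand appears as TTCAAA) and CCAAT letters (ATTGG on the opposite strand). A CHR and a CCAAT match can share at most 1 base.
CCNB2, chr15:59104896-59105145, plus strand: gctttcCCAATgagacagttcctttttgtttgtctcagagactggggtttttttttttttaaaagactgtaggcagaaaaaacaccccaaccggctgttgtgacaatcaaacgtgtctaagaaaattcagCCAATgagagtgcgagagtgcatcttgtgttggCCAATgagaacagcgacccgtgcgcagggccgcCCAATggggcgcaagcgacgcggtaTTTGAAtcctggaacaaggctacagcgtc
CDC20, chr1:43358731-43358980, plus strand: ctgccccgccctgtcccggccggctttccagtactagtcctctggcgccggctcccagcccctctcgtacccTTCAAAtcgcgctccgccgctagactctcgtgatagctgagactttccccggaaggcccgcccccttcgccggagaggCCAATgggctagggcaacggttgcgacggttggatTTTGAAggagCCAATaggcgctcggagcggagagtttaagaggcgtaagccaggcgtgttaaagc
TOP2A, chr17:40417897-40418146, minus strand: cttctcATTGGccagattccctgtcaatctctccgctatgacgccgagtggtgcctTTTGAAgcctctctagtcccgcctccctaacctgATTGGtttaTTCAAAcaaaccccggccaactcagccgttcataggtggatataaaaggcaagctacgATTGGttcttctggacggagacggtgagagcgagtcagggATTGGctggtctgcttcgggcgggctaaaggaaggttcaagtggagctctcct
CDK1, chr10:60778228-60778477, plus strand: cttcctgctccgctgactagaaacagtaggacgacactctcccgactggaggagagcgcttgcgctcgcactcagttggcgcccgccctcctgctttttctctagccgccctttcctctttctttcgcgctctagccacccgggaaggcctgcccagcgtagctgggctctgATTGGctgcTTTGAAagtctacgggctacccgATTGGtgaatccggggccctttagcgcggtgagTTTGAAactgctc
PLK1, chr16:23678639-23678888, plus strand: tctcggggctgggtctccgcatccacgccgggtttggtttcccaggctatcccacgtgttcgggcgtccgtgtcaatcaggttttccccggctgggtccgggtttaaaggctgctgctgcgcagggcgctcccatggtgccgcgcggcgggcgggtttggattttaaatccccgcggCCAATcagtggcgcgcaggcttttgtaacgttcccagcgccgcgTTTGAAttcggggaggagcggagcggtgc
CKS2, chr9:89310945-89311194, plus strand: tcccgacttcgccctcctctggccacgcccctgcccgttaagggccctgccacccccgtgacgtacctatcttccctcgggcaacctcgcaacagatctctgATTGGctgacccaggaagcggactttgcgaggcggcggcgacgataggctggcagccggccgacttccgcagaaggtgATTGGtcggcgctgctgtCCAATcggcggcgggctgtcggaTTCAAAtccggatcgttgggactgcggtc
The promoter of CCNB2 held 1 CHR match, starting 29 bases before the annotated start, behind 4 CCAAT matches at -244, -120, -87 and -54. PLK1 and CKS2 also had their CHR match at -29, with 1 and 3 CCAAT matches upstream. In CDC20 the CHR matches lay at -178 and -65, in CDK1 at -69 and -13, and in TOP2A at -194 and -151.

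Over all 58 members the median level was 4.075 TPM with DMSO and 3.25 TPM with CCA-1.1, and over all 19938 protein-coding genes it was 4.12 TPM with DMSO. Over the expressed ones alone, the DMSO median was 6.385 TPM for members and 18.46 TPM for the 12041 protein-coding genes. There were 31 members below 5 TPM in both libraries, 23 between 5 and 50 TPM in the DMSO library, and 4 above that (CKS2, CKS1B, BUB3 and PTTG1). The proliferation marker MKI67 stood at percentile 41.0 of all protein-coding genes in the DMSO library and CDK1 at percentile 46.9. Of the 58 members, 46 were expressed by the rule above and 12 were not. NUF2 and MYBL2 lay just inside that minimum and NEK2 just outside.

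Most members were lower in the CCA-1.1 library, by small amounts. In TPM, 47 of 58 members were lower and 11 were higher. Of the 46 expressed members, 37 (80.4%) were lower and 9 were higher, where 46.0% and 53.8% of the 12041 expressed protein-coding genes were. Over the 46 expressed members the differences had a median of -0.15 (interquartile range -0.28 to -0.017), while the median of the 12041 expressed protein-coding genes was 0.017 (interquartile range -0.099 to 0.14). A fold of 1.2 on the log2(TPM + 1) scale was used to count members: 14 of 46 (30.4%) were lower by more than 1.2-fold, where 7.03% of the 12041 genes were. Only 2 of 46 members (4.35%) were higher by more than 1.2-fold, where 10.7% of the 12041 genes were, and these were TTK and SMC2. No member of the 46 differed by more than 2-fold, which 0.341% of the genes did. NUSAP1 and KIF2C, both at -0.27, lay just inside the 1.2-fold limit. KIF11, at -0.263, lay exactly on it and was not counted, and NCAPG, at -0.26 (1.71 and 1.27 TPM), lay just outside.

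**Figure D1:**
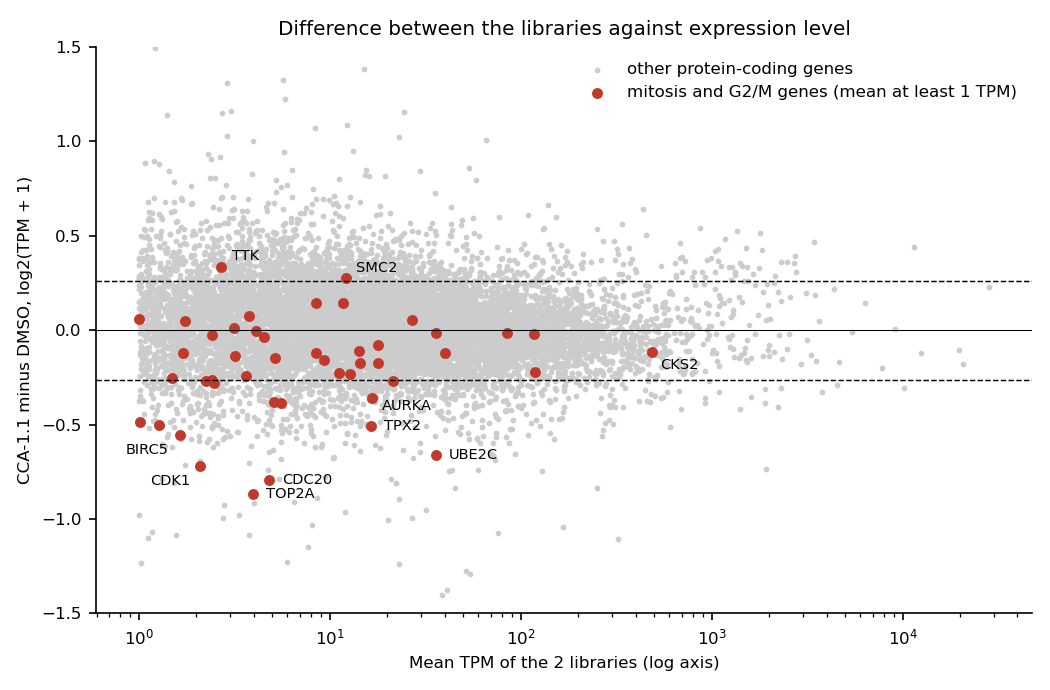
Difference between the libraries on the log2(TPM + 1) scale (vertical axis) against the mean TPM of both libraries (horizontal log axis) for expressed protein-coding genes, with the 46 mitosis and G2/M genes in red and dashed lines at 1.2-fold. Most red points lie below 0, 14 of them below the lower line and 2 above the upper line; 9 genes, none a member, lie outside the plotted range.

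The lower values were found at both ends of the expression range. With a mean of 1 to 10 TPM there were 27 members, 10 of them lower and 1 higher by more than 1.2-fold, with a median of -0.16; of all 4135 genes in that range 8.88% were lower and 16.9% higher, with a median of 0.048. With a mean of 10 TPM or more there were 19 members, 4 of them lower and 1 higher, with a median of -0.12; of the 7906 genes in that range 6.07% were lower and 7.44% higher, with a median of 0.0039. Summed over all 58 members, TPM was 1281 with DMSO and 1160 with CCA-1.1, a ratio of 0.905. CKS2 alone gave 39.7% of the DMSO sum, and the 4 highest members 65.6%. Without those 4 the sums were 440.77 and 379.72 TPM, a ratio of 0.861. The 12 members below 1 TPM summed to 8.66 and 5.90 TPM, a ratio of 0.681.

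**Figure D2:**
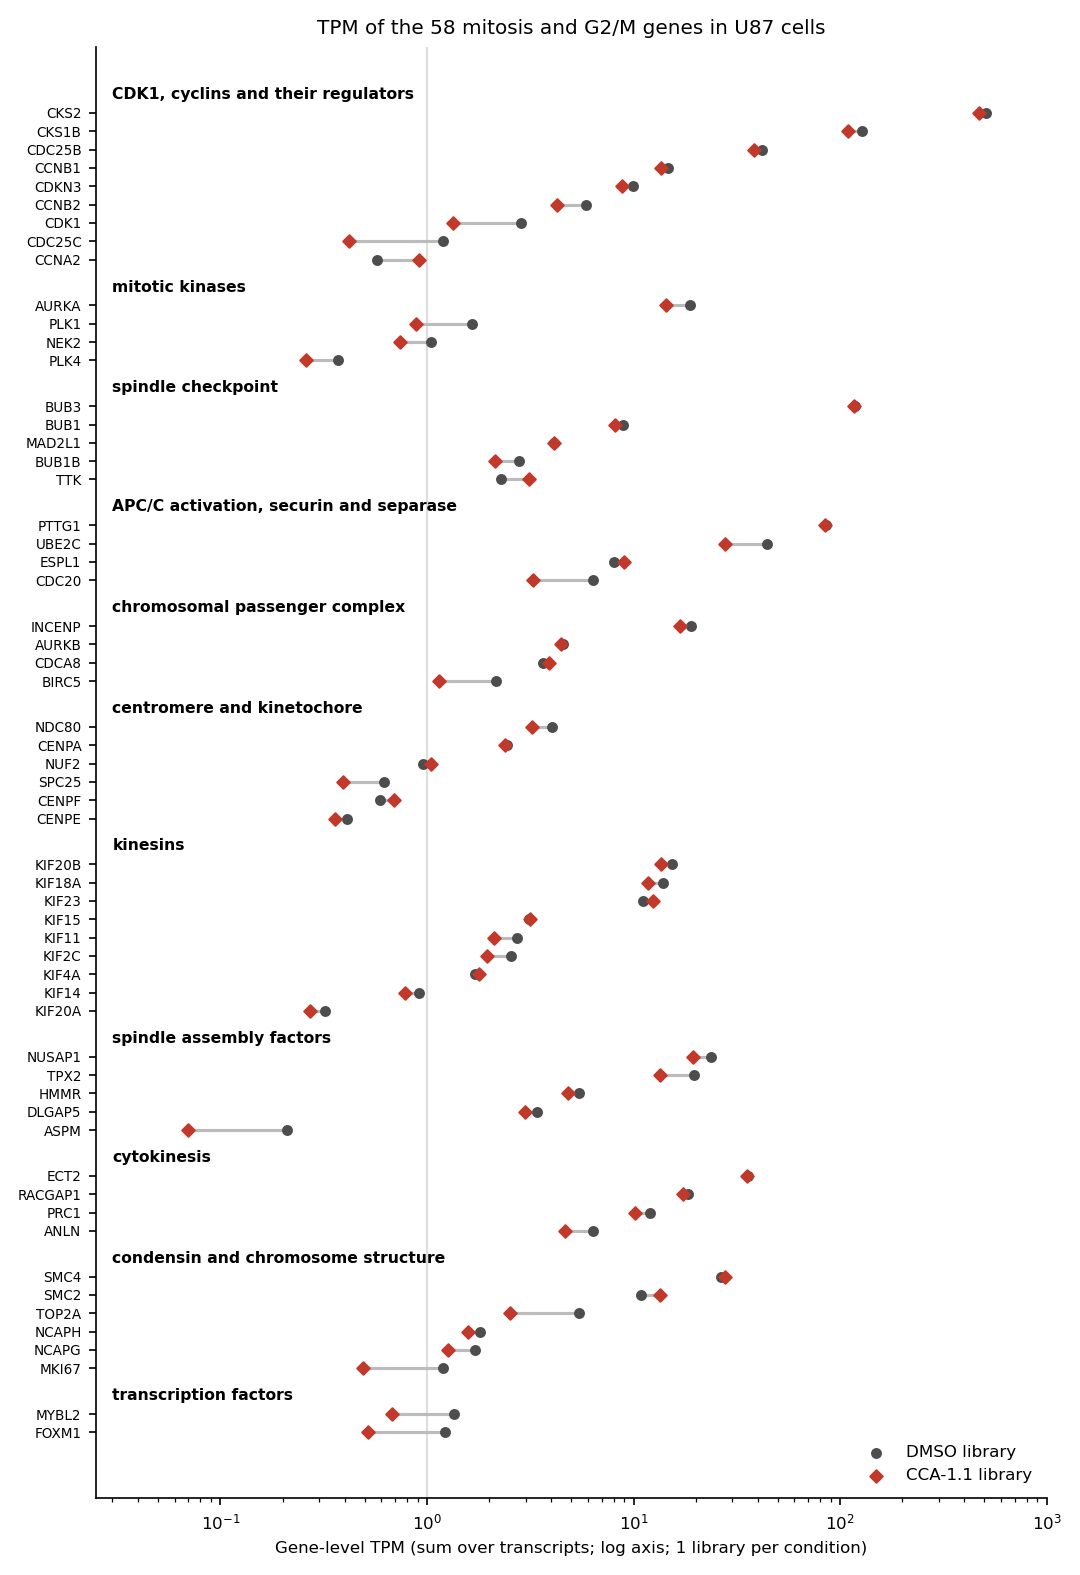
TPM of each of the 58 members (horizontal log axis) in the DMSO library (grey circles) and the CCA-1.1 library (red diamonds), ordered by role and by DMSO level within a role, with a grey line at 1 TPM. The log axis shows plain TPM without the pseudocount, so the gaps of low members such as ASPM (0.21 and 0.07 TPM) look wider than on the log2(TPM + 1) scale.

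In the CDK1, cyclin and regulator group, all 7 expressed members were lower in the CCA-1.1 library, 2 of them by more than 1.2-fold, with a median of -0.16. CDK1 (Entrez 983, chr10:60778331-60794852), the kinase that drives entry into mitosis, was at 2.84 TPM with DMSO and 1.33 TPM with CCA-1.1, a difference of -0.72. CCNB2, a B-type cyclin, was at 5.87 and 4.27 TPM, a difference of -0.38. The other B-type cyclin, CCNB1, stood at a higher level and closer together, at 14.73 and 13.57 TPM (-0.11). The phosphatase gene CDC25B, whose product activates CDK1, was at 41.73 and 38.32 TPM (-0.12), and CDC25C, with the same biochemical role, was at 1.19 and 0.42 TPM (-0.63), below the minimum mean. CCNA2, the cyclin A of S phase and G2, went the other way at 0.57 and 0.91 TPM (0.28), also below the minimum. The small CDK-binding subunits were the most abundant of the group: CKS2 was at 508.39 and 468.94 TPM (-0.12) and CKS1B at 127.47 and 109.28 TPM (-0.22). CDKN3, a phosphatase that acts on CDKs, was at 9.93 and 8.81 TPM (-0.16). Thus the kinase itself and CDC25C were lower by larger ratios than the cyclin B1 and CKS genes around them.

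In the group listed as mitotic kinases, both expressed genes were lower by more than 1.2-fold. The kinase genes AURKB (-0.04), BUB1 (-0.12) and TTK (0.34) were placed in other groups, described below. PLK1, which acts at centrosomes and kinetochores and in cytokinesis, was at 1.66 TPM with DMSO and 0.88 TPM with CCA-1.1 (-0.50). AURKA, a centrosome and spindle pole kinase, was at 18.72 and 14.38 TPM (-0.36). With only its transcript of highest mean TPM, AURKA was higher (0.23). The remaining kinases of this group were scarce in both libraries. NEK2, a centrosome kinase, was at 1.05 and 0.74 TPM, and PLK4, which starts centriole duplication, was at 0.37 and 0.26 TPM. By the gene sums, all 4 were therefore lower in the CCA-1.1 library, the last pair at levels where small amounts decide the ratio.

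The 5 spindle checkpoint genes had a median close to 0, at -0.018. BUB1B, which encodes the checkpoint protein BUBR1, was lower by more than 1.2-fold at 2.80 and 2.13 TPM (-0.28). TTK, the kinase MPS1 that starts checkpoint signalling, was higher by more than 1.2-fold at 2.27 and 3.13 TPM (0.34), the highest difference of any member. The kinase gene BUB1 was at 8.88 and 8.10 TPM (-0.12). BUB3, the WD-repeat partner of both BUB proteins, was at 118.69 and 117.22 TPM (-0.02), and MAD2L1, which encodes the CDC20 inhibitor MAD2, was at 4.13 and 4.12 TPM (0.00). The checkpoint group thus held the upper extreme of the members beside values that hardly differed.

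The genes that work with the APC/C were divided between large and small differences. CDC20 (Entrez 991, chr1:43358981-43363203), the APC/C activator that the checkpoint blocks, was at 6.38 TPM with DMSO and 3.26 TPM with CCA-1.1 (-0.79). UBE2C (Entrez 11065, chr20:45812644-45816952), the ubiquitin-conjugating enzyme that works with the APC/C, was at 44.30 and 27.63 TPM (-0.66), which was the largest difference among members whose mean reached 10 TPM. Securin, encoded by PTTG1, was at 85.39 and 84.43 TPM (-0.02). Separase, the protease that securin holds inactive and that is encoded by ESPL1, was at 8 and 8.96 TPM (0.15). By the gene sums, the activator and the enzyme were thus lower, while securin and separase lay within 1.2-fold. Over curated transcripts alone, however, ESPL1 was at 0.78 and 0.04 TPM (-0.78). The near-identical copies of PTTG1 were close to 0, with PTTG2 at 0.18 and 0.31 TPM and PTTG3P at 0.09 and 0 TPM.

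In the chromosomal passenger complex, which corrects faulty attachments and is needed for cytokinesis, 1 of 4 members was lower by more than 1.2-fold. This was BIRC5, the survivin gene, at 2.15 and 1.14 TPM (-0.56). The kinase subunit AURKB was at 4.57 and 4.43 TPM (-0.04) and the scaffold INCENP at 19.05 and 16.75 TPM (-0.18). Borealin, encoded by CDCA8, was at 3.64 and 3.89 TPM (0.08). The members of this 1 complex therefore did not share a direction.

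The centromere and kinetochore genes were low in both libraries, and none of the 3 expressed ones passed 1.2-fold. NDC80, a subunit of the complex that binds microtubules, was at 4.02 and 3.24 TPM (-0.24), and its partner NUF2 was at 0.96 and 1.04 TPM (0.06), exactly at the minimum mean. SPC25, another subunit of that complex, was at 0.62 and 0.39 TPM. Of these subunits of the NDC80 complex only NUF2 was higher, by a small amount at a low level. NUF2 was lower over curated transcripts alone (-0.06) and with only its transcript of highest mean TPM (-0.13). CENPA, the histone H3 variant of centromeres, was at 2.44 and 2.38 TPM (-0.03). The kinetochore motor CENPE was at 0.41 and 0.36 TPM, and the large kinetochore protein gene CENPF was at 0.59 and 0.69 TPM.

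Of the 9 kinesin motor genes, 7 were expressed, and 1 of these, KIF2C, was lower by more than 1.2-fold. KIF2C, the microtubule depolymerase MCAK, was at 2.55 and 1.95 TPM (-0.27), but over curated RefSeq transcripts alone at 2.12 and 1.95 TPM (-0.081). KIF11, the Eg5 motor that separates spindle poles, was at 2.72 and 2.10 TPM (-0.263). KIF18A, which dampens chromosome movements at the metaphase plate, was at 13.92 and 11.71 TPM (-0.23), and KIF20B, a motor of late mitosis, was at 15.39 and 13.51 TPM (-0.18). These 4 were lower, whereas the next 3 were not. KIF23, the centralspindlin motor of the cytokinetic midzone, was at 11.13 and 12.39 TPM (0.14), KIF4A, a chromosome and midzone motor, at 1.70 and 1.79 TPM (0.05), and KIF15, which cooperates with Eg5, at 3.11 and 3.15 TPM (0.01). The midzone motors KIF14 (0.91 and 0.78 TPM) and KIF20A (0.32 and 0.27 TPM) were below the minimum. KIF4B, the near-identical copy of KIF4A, was at 0.07 and 0 TPM.

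All 4 expressed spindle assembly genes were lower, with a median of -0.21. TPX2, which activates Aurora A and promotes microtubule nucleation around chromosomes, was at 19.57 and 13.48 TPM (-0.51), and NUSAP1, a microtubule bundling protein, was at 23.59 and 19.43 TPM (-0.27). Over curated transcripts alone NUSAP1 was at 13.07 and 12.88 TPM (-0.02). HMMR, a spindle-associated hyaluronan receptor, was at 5.45 and 4.83 TPM (-0.15), and DLGAP5, which stabilises kinetochore fibres, was at 3.39 and 2.99 TPM (-0.14). ASPM, a spindle pole protein, was scarce at 0.21 and 0.07 TPM. By the gene sums, the Aurora A kinase and its activator TPX2 were thus both past 1.2-fold in the same direction. AURKA turned with only its transcript of highest mean TPM (0.23).

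The cytokinesis genes were likewise all lower, with a median of -0.15 and 1 of 4 past 1.2-fold. ANLN, the anillin of the contractile ring, was at 6.39 and 4.65 TPM (-0.39), and PRC1, which bundles midzone microtubules, was at 12.05 and 10.16 TPM (-0.23). ECT2, the exchange factor that activates RhoA at the cleavage site, was at 35.97 and 35.57 TPM (-0.02), and its activator RACGAP1 was at 18.39 and 17.34 TPM (-0.08). By these sums, the more abundant pair of this group differed least. Over curated transcripts alone, ECT2 was at 27.55 and 22.04 TPM (-0.31) and PRC1 at 5.46 and 5.35 TPM (-0.025), so this order depended on the transcripts summed.

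Among the genes of condensin and chromosome structure lay the largest difference of any member. TOP2A (Entrez 7153, chr17:40388525-40417896), the topoisomerase II that untangles sister chromatids, was at 5.43 TPM with DMSO and 2.52 TPM with CCA-1.1 (-0.87). The condensin ATPase genes were not lower by their gene sums: SMC2 was at 10.88 and 13.38 TPM (0.28) and SMC4 at 26.54 and 27.58 TPM (0.05). Over curated transcripts alone, SMC2 was lower at 7.64 and 5.52 TPM (-0.41) and SMC4 higher at 10.39 and 12.15 TPM (0.21). The condensin I subunit NCAPH was at 1.81 and 1.58 TPM (-0.12), with NCAPG as given above. MKI67, whose product Ki-67 coats mitotic chromosomes, was at 1.2 and 0.49 TPM (-0.56), below the minimum mean. TOP2A and MKI67 were thus lower beside condensin subunits that pointed both ways.

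The transcription factor genes of this programme were both scarce and both lower. MYBL2, which encodes B-MYB, was at 1.35 and 0.68 TPM (-0.48), and FOXM1 was at 1.22 and 0.52 TPM (-0.55), the latter below the minimum. Without a pseudocount, which was tried once the values were known, 6 members were past 2-fold, all lower in the CCA-1.1 library. These were ASPM (a DMSO to CCA-1.1 ratio of 3), CDC25C, MKI67 (2.45), FOXM1 (2.35), TOP2A (2.15) and CDK1 (2.14). Of the 6, CDC25C, MKI67, FOXM1 and ASPM had a mean below 1 TPM. The depth behind such values is unknown, and no counting interval can be given. The share of all genes past 2-fold without a pseudocount was not computed.

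The summed values hid larger differences between transcripts of some genes. The table held 432 transcripts of the members, 290 of them above 0 in at least 1 library, and the split among transcripts of a gene is an estimate from shared reads. In 17 members a transcript holding at least 20% of its gene in 1 library changed its share by 20 percentage points or more, and 5 of these genes had a mean of 5 TPM or more. The rule was applied to members only, so whether such shifts are more frequent in them than in other genes is unknown. In ECT2, whose sum hardly differed, NM_018098.6 was at 12.49 and 5.07 TPM, NM_001349099.2 at 7.60 and 0.08 TPM, and NM_001258315.2 at 3.54 and 13.31 TPM. In KIF20B, NM_001382506.1 was at 3.78 and 0.03 TPM and NM_001284259.2 at 0.79 and 5.00 TPM, while in HMMR, NM_012485.3 was at 4.88 and 2.82 TPM and NM_001142557.2 at 0.02 and 2.01 TPM. In each of these 3 genes, a transcript that was low with DMSO was higher with CCA-1.1 as another was lower. In AURKA, NM_198437.3 was at 7.39 and 8.85 TPM, so its share was 39.5% and 61.5% although the gene sum was lower. In SMC2, whose sum was higher, NM_006444.3 was at 2.57 and 0.46 TPM.

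**Figure D3:**
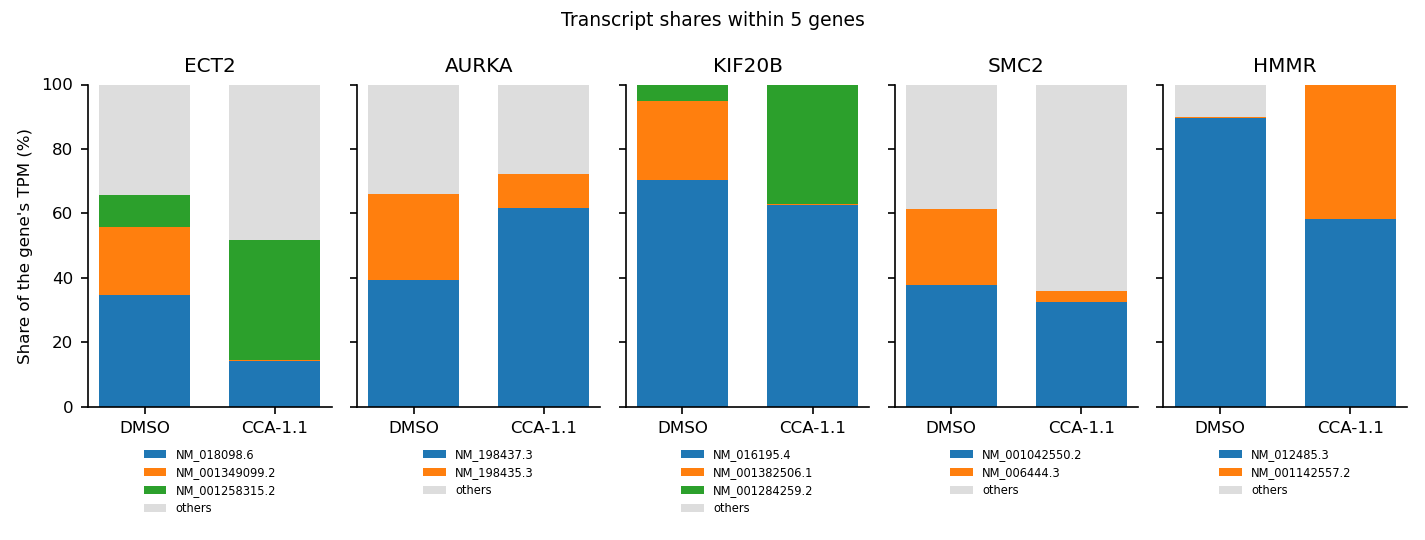
Share of each gene's TPM (vertical axis, %) held by its transcripts in the DMSO and CCA-1.1 libraries for the 5 members with a mean of 5 TPM or more and a transcript whose share moved by 20 percentage points or more. Transcripts that held at least 20% in 1 library are coloured and all others are grey; in ECT2 the green transcript goes from 9.84% to 37.4%.

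Among the lower abundance members with such shifts, KIF15 NM_020242.3 was at 1.40 and 2.88 TPM, AURKB NM_001284526.2 at 1.82 and 0.35 TPM, and NCAPH NM_015341.5 at 0.54 TPM and listed at 0. In DLGAP5, NM_014750.5 was at 2.28 and 1.22 TPM and NM_001146015.2 at 1.02 and 1.67 TPM. In BIRC5, NM_001168.3, at 1.79 and 0.68 TPM, was the major transcript in both libraries. The other shifts were in CDK1 and in the members CDC25C, CENPE, FOXM1, KIF14, MKI67 and SPC25, whose means were below 1 TPM. For CDK1, NM_001320918.1 was listed at 0 with DMSO and was at 0.30 TPM with CCA-1.1.

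The choice of transcripts set the sign of 13 members. Such turns were counted for members only, so no share over all genes stands beside them. With curated RefSeq transcripts 6 turned, and with only the transcript of highest mean TPM per gene 9 did. When the sum took only curated RefSeq transcripts, SMC2 had a difference of -0.41 in place of 0.28 and ESPL1 one of -0.78 in place of 0.15. NCAPG changed from -0.26 to 0.08, and AURKB from -0.04 to 0.07. NUF2 went from 0.06 to -0.06 and CENPF from 0.09 to -0.04, both at low levels. With only the transcript of highest mean TPM, PRC1 had the largest turn, at 1.92 and 3.56 TPM (0.64, against -0.23 for the sum). AURKB (0.29), AURKA (0.23), NCAPH (0.22) and NUSAP1 (0.16) were then higher, and SMC4 (-0.17) and NUF2 (-0.13) lower. CENPE and KIF14, both below the minimum mean, also turned. Of the 11 members with a single transcript in the table, for which no such split arises, 9 were lower in TPM. These were CDC20, PLK1, CCNB2, BUB1B, KIF11, NDC80, CKS2 (-0.12), KIF20A (-0.06) and MAD2L1 (4.13 and 4.12 TPM). CCNA2 and KIF4A were higher. The share of all single-transcript genes that were lower was not computed. In addition, 29 members overlap another annotated gene, a count also made for members only. The sources used here do not state the strand of the library. For NCAPG the overlapping gene LCORL was at 18.84 and 21.71 TPM, well above NCAPG itself, for CDC25C the overlapping FAM53C was at 30.90 and 30.70 TPM, and for KIF15 the overlapping TMEM42 was at 20.49 and 23.53 TPM.

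CHR and CCAAT letters were more frequent in the members' promoters than in those of protein-coding genes at large, a comparison that uses no expression value. RefSeq windows from 250 bases before to 50 bases after a start were at hand for 50 of 58 members; TPX2, AURKA, BUB3, TTK, UBE2C, RACGAP1, FOXM1 and BIRC5 had none in the table used. CHR letters occurred in 40 of 50 members (80%) and in 17.5% of 15843 protein-coding genes, counting a gene once over all its windows. By window, this was 67.2% of 64 windows of members and 13.7% of all 22199 windows of protein-coding genes. CCAAT letters occurred in 39 of 50 members (78%) and in 42.1% of protein-coding genes, or in 68.8% and 34.7% of windows. A window with both was found for 31 members (62%) and for 7.28% of protein-coding genes, or in 51.6% and 5.48% of windows. CENPE, KIF2C and MYBL2 held neither set of letters.

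The matches also had preferred positions. Of the 57 CHR matches in member windows, 15 started from 50 to 25 bases before the start, where CCNB2, PLK1 and CKS2 carry theirs, and 12 in the last 25 bases before it. Of the 92 CCAAT matches, 27 started from 75 to 50 bases before the start and 18 from 100 to 75 bases before it. A match of letters is a description and does not show binding.

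**Figure D4:**
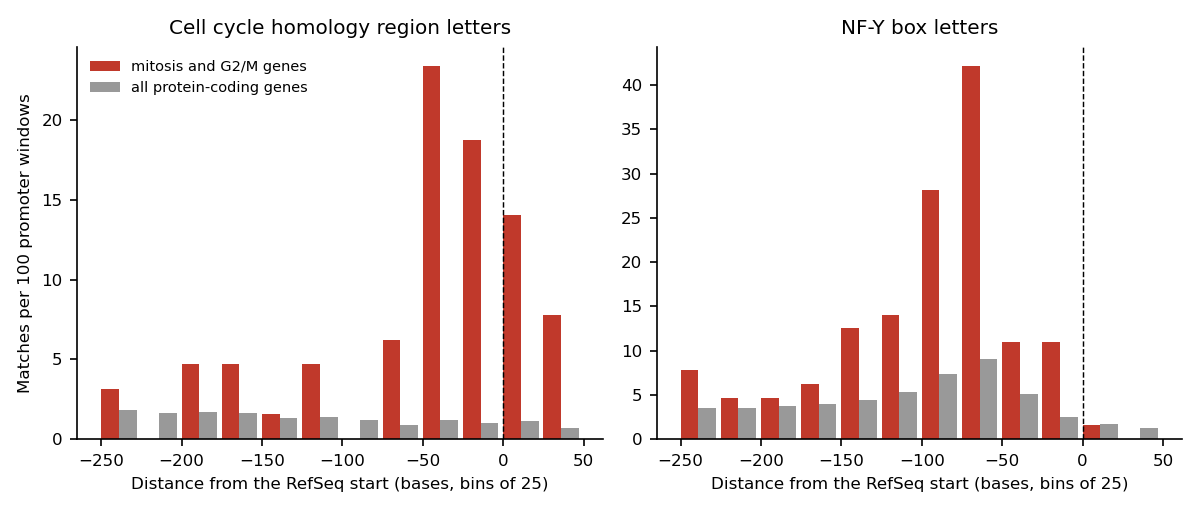
Matches per 100 promoter windows (vertical axis) in bins of 25 bases by distance from the RefSeq start (horizontal axis, dashed line at 0) for CHR letters (left) and CCAAT letters, the NF-Y box (right), in member windows (red) and windows of all protein-coding genes (grey). CHR matches of members are most frequent from -50 to -25, at 23.4 per 100 windows, and CCAAT matches from -75 to -50.

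Outside the members, the medians were similar with or without the letters, but lower genes were somewhat more frequent with CHR letters. Among the 643 other expressed protein-coding genes with both sets of letters in 1 window, the median was -0.008 and 9.18% were lower by more than 1.2-fold. Among the 4863 with neither, the median was 0.024 and 5.57% were lower. With CHR letters but not both in 1 window, 9.30% of 892 genes were lower, and with CCAAT letters but not both, 6.86% of 3659. The shares higher by more than 1.2-fold were 10.1% with both, 10.8% with neither, 11.7% for the CHR set and 9.76% for the CCAAT set. The 25 members with both had a median of -0.16, and 6 of them (24%) were lower by more than 1.2-fold. Of the 14 members with a window but not both, 4 were lower, with a median of -0.12.

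Other genes of mitosis had a median closer to 0. A further list of 117 mitotic genes had 112 expressed genes, whose median was -0.028. Of these, 15 (13.4%) were lower and 4 (3.57%) higher by more than 1.2-fold, beside the 7.03% and 10.7% of all protein-coding genes given above. The lower ones included ZWINT, a kinetochore protein, at 1.94 and 0.70 TPM (-0.79), CDCA5, the cohesin protector sororin, at 6.09 and 3.53 TPM (-0.65), and the kinetochore microtubule binder SKA1 at 2.92 and 1.60 TPM (-0.59). OIP5, which helps load CENPA, was at 5.77 and 3.87 TPM (-0.48), and the kinesins KIFC1 (3.34 and 2.18 TPM) and KIF22 (14.16 and 10.11 TPM) each differed by -0.45. The others on the lower side were CEP55 (-0.40), CDCA3 (-0.39), ARHGAP11A (-0.38), CENPU (-0.33), KNL1 (-0.33), LIN54 (-0.33), PKMYT1 (-0.30), PBK (-0.28) and SPAG5 (-0.27). The higher ones included the centromere and kinetochore genes CENPP at 6.04 and 8.87 TPM (0.49), MIS12 at 8.87 and 11.65 TPM (0.36), and CENPQ at 27.59 and 33.76 TPM (0.28). Of 22 expressed spindle and cytokinesis genes on this list, 6 (27.3%) were lower and 0 higher by more than 1.2-fold, with a median of -0.13. Of 32 kinetochore and checkpoint genes, 5 (15.6%) were lower and 4 (12.5%) higher, with a median of -0.05. By contrast with CDC20 and UBE2C, none of 17 other APC/C genes passed 1.2-fold, with a median of 0.026. The shares of all protein-coding genes past that fold were the 7.03% and 10.7% above. They encode APC/C subunits, the coactivator FZR1, the inhibitor FBXO5 and UBE2S, another ubiquitin-conjugating enzyme of the APC/C (243.49 and 221.99 TPM, -0.13).

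**Figure D5:**
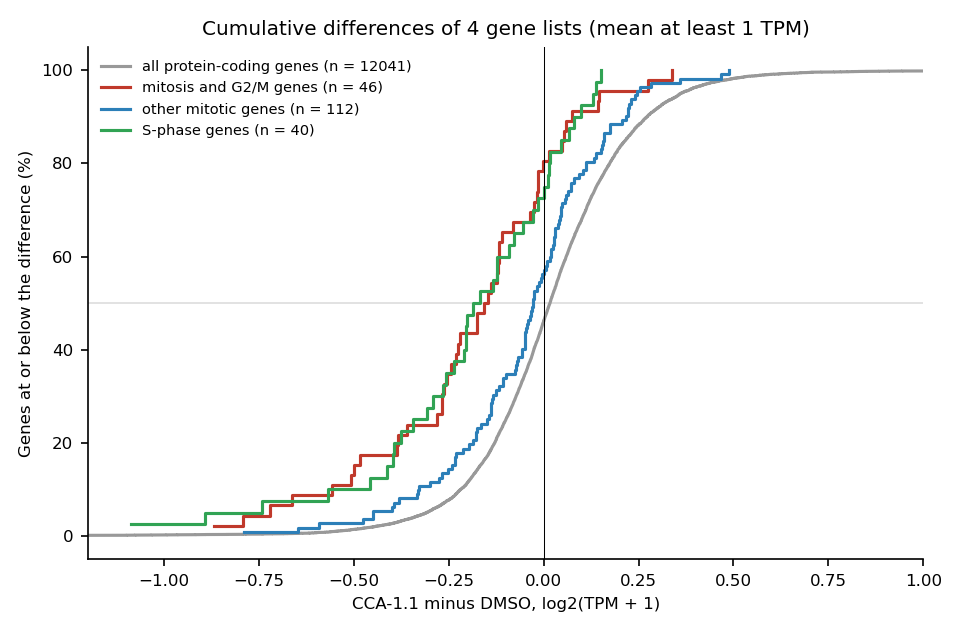
Cumulative share of genes (vertical axis, %) at or below a given difference on the log2(TPM + 1) scale (horizontal axis) for the 46 mitosis and G2/M genes (red), 112 other mitotic genes (blue), 40 S-phase genes (green) and 12041 protein-coding genes (grey), all of them expressed. The red and green curves run close together and to the left of the grey one, with medians of -0.15 and -0.18 against 0.017, and the blue curve lies between, with a median of -0.028.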

How the data were processed

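RNA of U87 cells was sequenced by the authors after 72 h with DMSO or CCA-1.1, 1 library each. Reads were checked with FastQC 0.11.9 and MultiQC 1.1, per the submitters' processing notes, and quantified with Kallisto against transcripts of GRCh38.p14. The deposited TPM values, written to 2 decimals, sum to the same total in both libraries, so depth is unknown. Of 177816 transcripts, 169966 matched a RefSeq gene symbol, and TPM were summed per gene. Differences used log2(TPM + 1), a minimum mean of 1 TPM and limits of 1.2-fold and 2-fold. No test was run, since the authors' edgeR test needs counts and replicates. Every member was to be named, with transcripts whose share moved by 20 percentage points or more and other mitotic genes past 1.2-fold; some items under this rule were left out of the text. Members and lists were chosen with earlier results of these data known, and the TPM ranges, the overlaps and the setting without a pseudocount were added after seeing the data. Promoter windows came from RefSeq (GRCh38.p14); protein features were not analysed here. Alternatives were pseudocounts, minima, transcript choice and scaling. Calculations in Python 3.11.15 (numpy 2.4.6, pandas 2.3.3, matplotlib 3.10.9) were tested on simulated data. No column was left unused.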

Additional observations from a re-analysis of the deposited data

How the results depend on the processing

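The median difference of the members was below 0 under every setting run, from -0.21 to -0.12, and the ratio of summed TPM stayed between 0.899 and 0.905. With a minimum mean of 10 TPM, which leaves 19 members, 4 were lower and 1 was higher by more than 1.2-fold. With the highest transcript of each gene only, 18 of 43 members were lower and 5 higher by more than 1.2-fold. For the alternative settings other than that minimum, the shares of all genes were not computed. Past 2-fold were 2 members with a pseudocount of 0.1 TPM, 2 with no pseudocount and 1 with the highest transcript only, in place of 0. The direction of SMC2 turned with curated transcripts only (-0.41), and those of AURKA (0.23) and NUSAP1 (0.16) with the highest transcript only, a setting that also turned other members, PRC1 the most (0.64), and the cause was not tested. KIF2C (-0.081) and NUSAP1 (-0.02) were within 1.2-fold with curated transcripts only. Median-ratio scaling gave 15 lower members in place of 14. No paired analysis was possible because each condition had a single library, and none could be left out. Depth cannot be read from TPM, which limits most the members below 1 TPM.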

Other observations

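The genes of DNA replication, which act in S phase before the members described above, had a median difference close to theirs. Of 43 S-phase genes, 40 were expressed, with a median difference of -0.18 on the log2(TPM + 1) scale; 13 (32.5%) were lower in the CCA-1.1 library by more than 1.2-fold and 0 were higher, where 7.03% and 10.7% of all expressed protein-coding genes were. With 1 library per condition no tool was run to test this. RRM2, the regulatory subunit of ribonucleotide reductase, was at 5.5 TPM with DMSO and 2.06 TPM with CCA-1.1, a difference of -1.09 and past 2-fold. E2F1, the transcription factor of the G1 to S transition, was at 11.46 and 5.72 TPM (-0.89). The origin genes ORC6 (6.19 and 3.30 TPM) and CDT1 (3.58 and 2.09 TPM) differed by -0.74 and -0.57. The nucleotide synthesis genes TK1 (15.01 and 10.66 TPM) and TYMS (25.58 and 19.93 TPM) differed by -0.46 and -0.34. Also among the 13 were CLSPN, POLE2, CCNE1, MCM4, CHAF1B and CDC6, with differences from -0.41 to -0.27.

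Small RNA genes lie within the most abundant members. MIR3153, which overlaps CKS2, was at 17.36 TPM with DMSO and 4.19 TPM with CCA-1.1, and MIR4258, which overlaps CKS1B, was listed at 0 and was at 13.94 TPM. These are annotated as short transcripts, for which few reads give a large TPM, and they are not part of the sums of CKS2 and CKS1B.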
